A study of Mus musculus with 34 samples.

Results

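Egr1, Egr2, Egr3 and Egr4, the 4 EGR transcription factors, and their corepressors Nab1 and Nab2 were followed in RNA-seq of the whole dorsal hippocampus. They were taken by gene symbol, and these 6 genes are 6 of the 54532 gene rows of the count table. Both groups were adult male C57BL/6J mice of 2 to 3 months, a wild-type strain, with no virus or drug named for either group. The homecage group (n = 4) gave control tissue, and the SOR group (n = 4) was taken 1 h after training in spatial object recognition, in which mice explored an open field that held objects at fixed places. Training followed single housing, daily handling and habituation to the arena, and arena exposure, exploration and the task itself cannot be told apart in this comparison.

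EGR proteins are zinc finger transcription factors of the immediate-early class, whose genes are switched on by neuronal activity without new protein synthesis. Activity reaches them through calcium and the ERK kinase cascade, which act on SRF with its ternary complex factor partners and on CREB at the promoters. EGR proteins bind GC-rich sites, and NAB1 and NAB2 dock on a repression domain that EGR1, EGR2 and EGR3 carry and EGR4 lacks, recruiting among others the NuRD complex through CHD4. In the hippocampus, Egr1 is widely used as an activity marker and is needed for lasting forms of plasticity.

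The libraries held 54934184 to 81525977 estimated counts in the homecage group and 51406011 to 72070472 in the SOR group. Levels are given as CPM, counts scaled to a common library size by the upper quartile. Among 22018 genes tested by edgeR's quasi-likelihood test, 60 were higher in SOR at an adjusted p under 0.05, which is 0.273% of genes, and 68 changed in either direction, which is 0.309%. An unadjusted p under 0.05 was reached by 10.1% of genes, and DESeq2 called 1.98%. All 4 SOR libraries lay above all 4 homecage libraries for 2.98% of genes. An exact two-sided permutation test of 4 against 4 libraries cannot go below p = 0.0286. None of 60 marker genes of hippocampal fields, other cell types and neighbouring tissue passed edgeR's test. Of them 11, or 18.3%, had an unadjusted p under 0.05, against 10.1% of all genes, and DESeq2 called 2, Opalin of oligodendrocytes and Cldn5 of endothelium, against 1.98% of all genes. Choroid plexus markers summed to 25.0 to 1090 CPM in homecage and 41.2 to 3980 CPM in SOR. Oligodendrocyte markers summed to 5140 to 5610 CPM in homecage and to 4210 to 5510 CPM in SOR, and 0 of the 7 had a log2 fold change above 0. For CA1 it was above 0 in 4 of 4 markers, for CA3 in 1 of 4, for dentate granule cells in 0 of 4 and for choroid plexus in 5 of 5. In each of these 4 lists 0 genes had an unadjusted p under 0.05. All 5 red blood cell markers had a log2 fold change above 0, with sums of 98.6 to 127 CPM in homecage and 115 to 184 CPM in SOR. The part of these shifts in the members' differences was not tested.

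Of the 6 genes, 3 rose at an adjusted p under 0.05 (Egr2, Egr4 and Egr1), beside the 0.273% of all genes called higher, and none was called lower. This count was 1 without homecage 1, homecage 2, homecage 4 or SOR 4, and 5 with DESeq2 or with 2 or 3 RUVs factors (estimates of unwanted variation, fitted with edgeR's likelihood ratio test). The fits with 5 members called also called more of all 22018 genes higher. They called 314 with DESeq2 and 302 and 291 with 2 and 3 RUVs factors, against 60 in the main fit. The 4 fits with 1 member called had 32, 28, 26 and 37 genes higher, in the order named. For 5 of the 6, every gene but Nab1, all SOR libraries lay above all homecage libraries, beside 2.98% of all genes. Egr3 and Nab2 were among these 5 without overlap and not among the 3 called in the main fit. In whole tissue, a change in the number of expressing cells and a change in RNA per cell cannot be told apart.

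**Figure D1:**
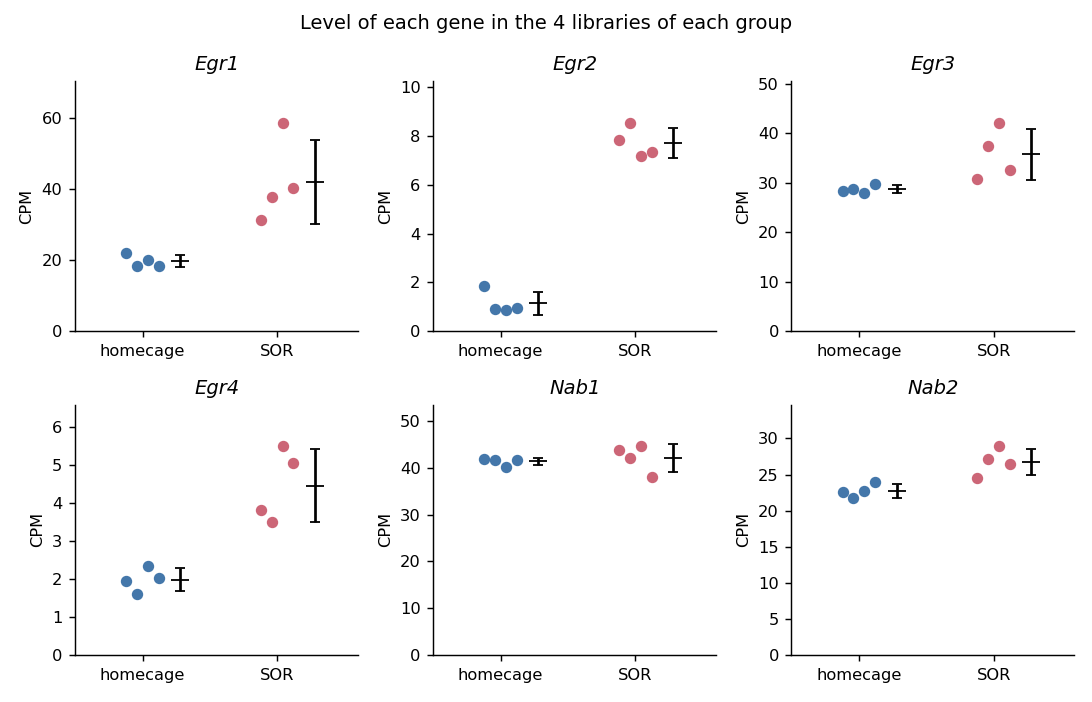
Level of each gene in CPM (y axes, linear, from 0) in the 4 homecage and 4 SOR libraries, each point being 1 library and the bar beside it the mean ± SD. Egr2 shows the widest gap as a ratio, 3.87-fold from the highest homecage library (1.85 CPM) to the lowest SOR library (7.17 CPM), and the Nab1 points overlap.

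Egr2, also known as Krox20 and best known for its part in peripheral myelination, had the largest fold change of the 6. It stood at 1.85, 0.926, 0.874 and 0.954 CPM in homecage libraries 1 to 4 and at 7.85, 8.54, 7.17 and 7.33 CPM in SOR libraries 1 to 4. Homecage 1 was the high library of its group, and the lowest SOR library was still 3.87-fold above it. The means were 1.15 ± 0.468 and 7.72 ± 0.618 CPM (SD, n = 4 each), a 6.7-fold rise, and the log2 fold change was 2.75 (SE 0.222, adjusted p = 4.66e-04 by edgeR's quasi-likelihood test). Egr2 ranked 3 of 22018 by log2 fold change and 6 by p. The relative spread of the libraries was 40.7% of the mean in homecage and 8.0% in SOR, with 49 to 102 counts behind each homecage value and 373 to 584 behind each SOR value. Its gene lies at chr10:67535475-67542188 on the plus strand (mm10), and its identifier is ENSMUSG00000037868.

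Egr1, or Zif268, the most studied of the family in memory, stood at 4.4 CPM per kilobase of exon in homecage against 0.339 for Egr2, and its fold change was smaller. Its homecage libraries held 22.1, 18.4, 20.1 and 18.4 CPM, and its SOR libraries 31.3, 37.8, 58.8 and 40.3 CPM. The homecage values lay close together and every SOR value was above them, with SOR 3 well above the rest and SOR 1 nearest to homecage at 1.42-fold over the highest homecage library. Means were 19.7 ± 1.73 and 42.0 ± 11.8 CPM, a 2.13-fold rise with a log2 fold change of 1.09 (SE 0.163, adjusted p = 0.0212 by edgeR). Its relative spread went from 8.77% in homecage to 28.1% in SOR. Without SOR 3 the log2 fold change was 0.88 and the adjusted p 0.00779 by edgeR. By edgeR the adjusted p exceeded 0.05 without homecage 1 (0.0563), homecage 2 (0.092), homecage 3 (0.0824), homecage 4 (0.1), SOR 2 (0.0576) or SOR 4 (0.0635), while the log2 fold change stayed between 1.06 and 1.15 in those 6 fits. Egr1 (ENSMUSG00000038418) lies at chr18:34859823-34864984 on the plus strand.

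Egr4, the member without the NAB docking domain, had a fold change near that of Egr1. It held 1.96, 1.6, 2.34 and 2.03 CPM in homecage and 3.81, 3.51, 5.5 and 5.05 CPM in SOR. The groups did not overlap, the lowest SOR library being 1.5-fold above the highest homecage library, and SOR 3 and SOR 4 were above SOR 1 and SOR 2. The means of 1.98 ± 0.303 and 4.47 ± 0.957 CPM differed 2.25-fold, with a log2 fold change of 1.17 (SE 0.175, adjusted p = 0.0212 by edgeR). Leaving out homecage 1 (adjusted p = 0.0812), homecage 2 (0.0826), homecage 4 (0.0906), SOR 3 (0.0575) or SOR 4 (0.0715) lost the call in the edgeR fit, with log2 fold changes of 1.06 to 1.18. Egr4 (ENSMUSG00000071341) lies at chr6:85511121-85513589 on the minus strand and is the shortest of the 6, with 2148 bases of exon.

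Egr3, which acts beside Egr1 in activity-dependent transcription, did not pass the test. Its homecage values were 28.4, 28.7, 27.9 and 29.8 CPM and its SOR values 30.8, 37.3, 42.1 and 32.6 CPM. All SOR values were above all homecage values, but SOR 1 by only 1.03-fold. The means were 28.7 ± 0.829 and 35.7 ± 5.07 CPM, the log2 fold change was 0.31 (SE 0.0888), and edgeR's adjusted p was 0.242 beside an exact permutation p of 0.0286. The adjusted p of Egr3 was 0.0144 by DESeq2, and 0.0012 and 0.00198 by edgeR's likelihood ratio test with 2 and 3 RUVs factors. Egr3 (ENSMUSG00000033730) lies at chr14:70077203-70082614 on the plus strand.

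Neither corepressor passed the test. Nab2, whose own transcription EGR proteins are known to raise, held 22.6, 21.7, 22.7 and 24.0 CPM in homecage and 24.5, 27.2, 28.9 and 26.4 CPM in SOR. These groups did not overlap, with a ratio of 1.02 between the lowest SOR and the highest homecage library, the means were 22.7 ± 0.938 and 26.7 ± 1.8 CPM, and the log2 fold change was 0.23 (SE 0.0632, adjusted p = 0.225 by edgeR). The adjusted p of Nab2 was 0.00775 by DESeq2, and 0.0286 and 0.0437 by edgeR's likelihood ratio test with 2 and 3 RUVs factors. Nab1 held 41.9, 41.6, 40.3 and 41.8 CPM in homecage and 43.9, 42.1, 44.6 and 38.0 CPM in SOR. The Nab1 groups overlapped, SOR 4 being the lowest of all 8, and the log2 fold change was 0.03 (SE 0.0544, adjusted p = 0.914 by edgeR). Nab1 (ENSMUSG00000002881, chr1:52457294-52500679) and Nab2 (ENSMUSG00000025402, chr10:127660918-127668568) are both on the minus strand. Nab2 shares 1668 bases with Nemp1, 1646 with the antisense gene Gm16229 and 40 with Stat6, all on the opposite strand, and whether counting used strand is not given in the sources used here. Mean levels in homecage and SOR were 4.63 and 4.06 CPM for Nemp1, 0.393 and 0.456 CPM for Gm16229 (log2 fold change 0.22, SE 0.288) and 8.51 and 8.38 CPM for Stat6, and none of the 3 passed the test.

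**Figure D2:**
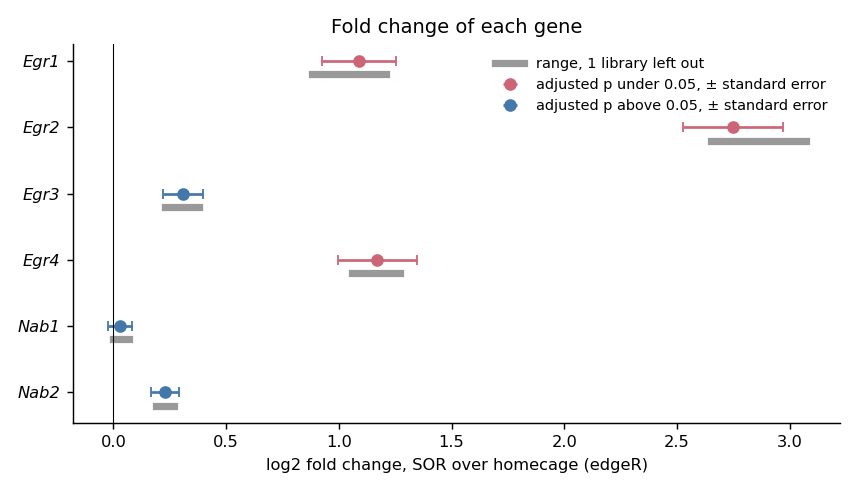
Log2 fold change of SOR over homecage for each gene (points, with the edgeR standard error), coloured by adjusted p, above a grey bar for the range when 1 library is left out. Egr2 stands apart at 2.75, Egr1 and Egr4 lie together at 1.09 and 1.17, and the ranges of Egr3 and Nab2 stay above 0 while that of Nab1 reaches it.

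The size of the response differed between members. Within each library the log2 ratio of 2 members was taken, which leaves library scaling out, and its mean in SOR was compared with that in homecage for all 15 pairs by the exact two-sided permutation test, with p adjusted over the pairs. For 11 pairs the groups did not overlap (p = 0.0286, adjusted p = 0.039, exact). Each of these p-values is the smallest the test can give, so the adjusted p depends on how many pairs reach it. The 15 pairs come from 6 genes and are not independent, and the share among other gene pairs was not computed. The log2 ratio of Egr1 to Egr2 fell by 1.75 (SE 0.308), while that of Egr2 to Egr4 rose by 1.65 (SE 0.353) and that of Egr2 to Egr3 by 2.50 (SE 0.286). Egr1 gained 0.75 (SE 0.137) on Egr3 and 0.82 (SE 0.163) on Nab2. Between Egr1 and Egr4 no difference was detected, the ratio moving by -0.10 (SE 0.158, exact p = 0.514), and between Egr3 and Nab2 the ratio moved by 0.07 (SE 0.0614, exact p = 0.257).

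The SOR libraries did not order the members alike. Relative to the homecage mean of log2 CPM, Egr1 stood at 0.67, 0.94, 1.58 and 1.03 in SOR 1 to 4, and Egr4 at 0.95, 0.84, 1.48 and 1.36. Egr2 stood at 2.83, 2.96, 2.7 and 2.73 in the same libraries. SOR 3 was thus the highest SOR library for 5 of the 6 genes, Egr1, Egr3, Egr4, Nab1 and Nab2, and the lowest for Egr2. Some of these ranks rest on small gaps. For Egr2 it was 2.7 in SOR 3 against 2.73 in SOR 4, from 467 and 373 counts. For Nab1 it was 0.11 in SOR 3 against 0.08 in SOR 1. SOR 1 was the lowest for Egr1, Egr3 and Nab2. SOR 3 also had the lowest marker sums of all 8 libraries for oligodendrocytes (4210 CPM), astrocytes (1300 CPM) and microglia (190 CPM), and the part of tissue composition in these differences was not tested.

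**Figure D3:**
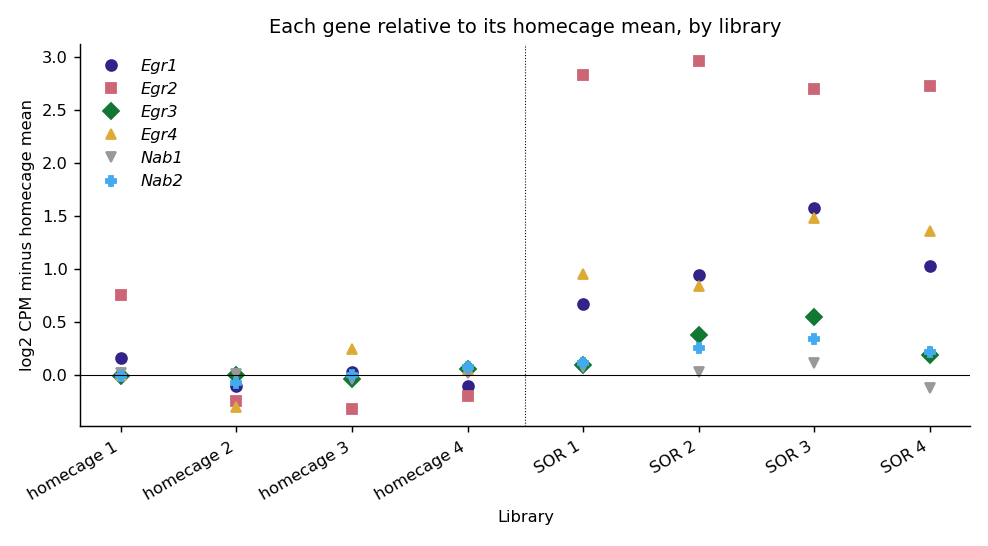
Log2 CPM of each gene minus its homecage mean (y axis) in each of the 8 libraries (x axis), with a symbol for each gene and a dotted line between homecage and SOR. Egr1 and Egr4 are highest in SOR 3 (1.58 and 1.48), where Egr2 is at its lowest SOR value of 2.7, close to 2.73 in SOR 4.

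Levels of different genes were compared per kilobase of exon. In homecage the order was Nab1 at 10.1 ± 0.189 CPM per kb, Nab2 at 7.73 ± 0.319, Egr3 at 6.51 ± 0.188, Egr1 at 4.4 ± 0.386, Egr4 at 0.923 ± 0.141 and Egr2 at 0.339 ± 0.138, and no neighbours in that order overlapped. This order and separation rest on exon length. In homecage CPM without it, Egr3 (mean 28.7) lay above Nab2 (mean 22.7). Egr1 (18.4 to 22.1 CPM) then overlapped Nab2 (21.7 to 24.0 CPM), and Egr2 (0.874 to 1.85 CPM) overlapped Egr4 (1.6 to 2.34 CPM). In SOR the upper 4 overlapped, with Nab1 at 10.3 ± 0.713 CPM per kb, Egr1 at 9.37 ± 2.63, Nab2 at 9.09 ± 0.613 and Egr3 at 8.1 ± 1.15. The lower 2 overlapped as well, with Egr2 at 2.27 ± 0.182 and Egr4 at 2.08 ± 0.445, an overlap that rests on exon length, since without it Egr2 held 7.17 to 8.54 CPM and Egr4 3.51 to 5.5 CPM. Egr3 had the highest level per kb of the 4 EGR genes in every homecage library, and in SOR 3 and SOR 4 Egr1 was above it. In SOR 1 and SOR 2 the levels per kb of Egr1 and Egr3 were nearly equal. Without exon length Egr1 was above Egr3 in all 4 SOR libraries, narrowly in SOR 1 (31.3 against 30.8 CPM) and SOR 2 (37.8 against 37.3 CPM).

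As a share of the summed EGR level per kb, Egr3 went from 53.5 ± 2.87% to 37.3 ± 2.56% and Egr2 from 2.76 ± 1.0% to 10.7 ± 2.24%. The Egr1 share was 36.1 ± 1.92% in homecage and 42.4 ± 4.12% in SOR, ranging from 33.9% to 38.4% and from 38.7% to 48.0%. The Egr4 share was 7.57 ± 1.09% and 9.55 ± 1.43%, with overlapping groups, and 3.84% and 4.99% without length correction. Summed over the family, EGR level went from 12.2 ± 0.486 to 21.8 ± 3.92 CPM per kb, and summed NAB level from 17.8 ± 0.393 to 19.4 ± 1.01 CPM per kb. The ratio of the EGR sum to the NAB sum was 0.66 to 0.715 in homecage and 0.948 to 1.32 in SOR. The EGR sum includes Egr4, whose protein lacks the NAB docking domain. Both sums are of RNA, and protein was not measured here.

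**Figure D4:**
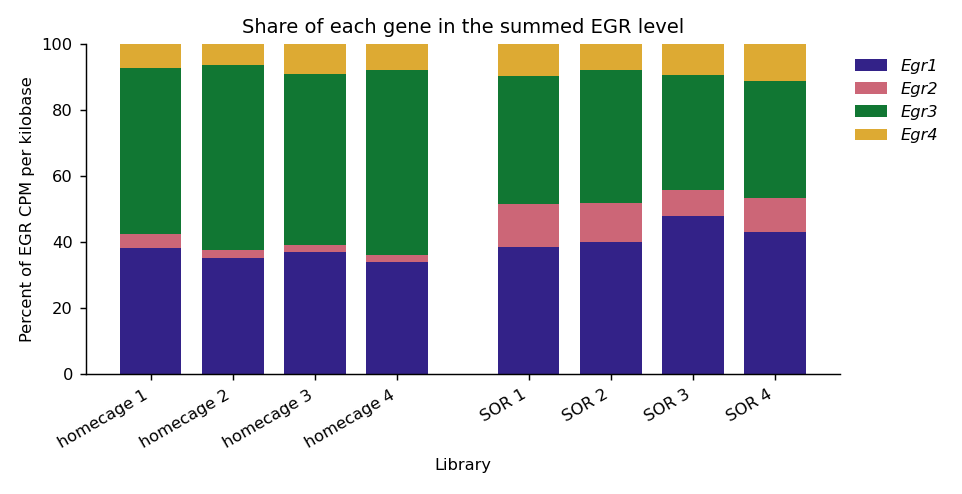
Share of Egr1, Egr2, Egr3 and Egr4 in the summed EGR level per kilobase of exon (stacked bars, y axis in percent) in each of the 8 libraries. The Egr3 segment is the largest in all homecage libraries (50.3% to 56.0%) and covers 35.0% to 40.2% in SOR.

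Promoter sequence was read from RefSeq windows of 250 bases before to 50 bases after each start (GRCm38.p6). The set held 5 windows for Egr2, 1 each for Egr4, Nab1 and Nab2, and 0 for Egr1 and Egr3. The promoters of Egr1 and Egr3 were thus not searched. The motifs, searched on both strands and settled after their matches had been seen, were the CArG box bound by SRF, the CRE TGACGTCA and its core TGACGT bound by CREB, the AP-1 site TGANTCA, the ETS site CCGGAA, the EGR site GCGNGGGCG and the GC box GGGCGG. They occur in 1.63%, 1.79%, 7.51%, 7.81%, 14.9%, 5.55% and 35.7% of all 32851 windows, in that order. These shares are per window, while Egr2 had 5 windows, some of them overlapping. The EGR site can overlap the GC box, and the CRE holds its core. Egr2 held 2 different CArG boxes, each beginning 72 bases before a RefSeq start. They are shown here in capitals with 9 bases on each side, at chr10:67537485-67537512 and chr10:67537788-67537815 on the plus strand.
Egr2 first box: ggatcttctCCTTTTTTGGaaagtctcg
Egr2 second box: ttcctcagtCCATATATGGgcagcgacg

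The first of these windows also held the ETS site at 131, 129 and 48 bases before its start, and a GC box at 35 bases. The ETS matches at 131 and 129 bases lie on opposite strands and overlap. The second window held the CRE core at 56 bases. Egr4 held the CRE core 2 times, at 178 and 110 bases before its start, in the 250 bases upstream of the gene (chr6:85513590-85513839, minus strand), where it reads as its reverse complement in capitals.
Egr4 upstream: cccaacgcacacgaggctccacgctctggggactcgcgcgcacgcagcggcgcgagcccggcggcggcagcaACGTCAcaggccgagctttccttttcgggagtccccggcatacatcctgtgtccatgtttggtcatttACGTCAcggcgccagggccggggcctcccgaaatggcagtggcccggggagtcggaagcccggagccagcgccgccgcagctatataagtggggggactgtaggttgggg

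Nab1, whose level did not pass the test, held the EGR site 3 times, at 141, 109 and 38 bases before the RefSeq start, inside the first exon of a longer GENCODE transcript on the minus strand. The sites are shown in capitals, the first reading as the reverse complement, at chr1:52500572-52500598, chr1:52500540-52500566 and chr1:52500469-52500495. All 3 overlapped a GC box. The 1 Nab2 window held a GC box and none of the other motifs. Its RefSeq start (chr10:127666703) lies inside the GENCODE gene, whose upstream end is at 127668568, and sequence before that end was not searched. These matches describe the letters in the windows, and binding was not measured here.
Nab1 site 1: ccccgcggcCGCCCACGCcgggatctg
Nab1 site 2: ctcggccgcGCGTGGGCGggagccgga
Nab1 site 3: cggggcgggGCGGGGGCGgcggaggtg

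Genes that moved most like each EGR member were found by the root-mean-square difference of log2 CPM, centred on homecage, over the 8 libraries. The search took in 16352 genes whose CPM averaged 1 or more over both groups together. High levels in SOR alone could thus admit a gene. Nearest to Egr1 were Egr4 (0.206), the kinase gene Sik1 (0.264) and the cell cycle inhibitor gene Cdkn1a (0.272). Nearest to Egr4 were the nuclear receptor gene Nr4a1 (0.203), Egr1 (0.206) and Atf3 (0.256), which encodes a stress-responsive transcription factor. Atf3 averaged 0.653 CPM in homecage and 1.48 CPM in SOR, so it entered the search only through its SOR level. For Egr2, Fos (0.717), Fosb (0.799) and the lipid droplet gene Plin4 (0.952) came first, at larger distances. Egr2 ranked 3 of 22018 by log2 fold change, so few genes could lie close to it by this measure. Fos and Fosb, which encode subunits of AP-1, had log2 fold changes of 1.89 and 1.84 against 2.75 for Egr2. Nearest to Egr3 were Rtl1 (0.0752), Gm37899 (0.0773) and Mical3 (0.0792), none of which passed the test. The distance includes the SOR difference itself, so neighbours resemble a member in fold change by selection. Their fold changes and calls are therefore no separate result.

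No gene of the lists upstream of the EGR family or partnering it was called by edgeR. The 6 genes for SRF and its ternary complex factors and coactivators, of which 1 had an unadjusted p under 0.05 (10.1% of all genes) and DESeq2 called Srf (1.98% of all genes), had a median log2 fold change of 0.04, beside -0.0193 over all genes tested. Srf itself went from 36.9 ± 2.31 to 42.0 ± 1.83 CPM (log2 fold change 0.19, adjusted p = 0.277 by edgeR). The 15 ERK cascade genes, of which 1 had an unadjusted p under 0.05 and DESeq2 called Rps6ka3, beside the same shares of all genes, had a median of -0.03 and ran from Rps6ka1 at -0.18 to Rps6ka3 at 0.22. The NuRD complex, which NAB proteins recruit, had none of 13 genes called by edgeR or DESeq2 and 0 with an unadjusted p under 0.05 (median -0.02), and its helicase gene Chd4 had a log2 fold change of -0.11. Among other zinc finger genes of GC-rich sites none of the 4 tested was called by either tool, with 0 at an unadjusted p under 0.05 (median -0.10), and Wt1 was too low to test.

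Of 17 reported EGR target genes that were tested, 1 was called by edgeR (0.309% of all genes) and by DESeq2 (1.98%), and 3 had an unadjusted p under 0.05 (10.1%). This was Arc, whose product regulates AMPA receptor traffic and which is itself an immediate-early gene, at 91.9 ± 4.98 CPM in homecage and 246 ± 21 CPM in SOR (log2 fold change 1.42, SE 0.0646, adjusted p = 8.27e-06 by edgeR). The median log2 fold change over the 17 was -0.01, with 8 of 17 above 0, against 43.8% of all genes tested. Psmb9, an immunoproteasome subunit gene, was lowest at -1.09 (adjusted p = 0.306 by edgeR), from 1.09 ± 0.594 to 0.513 ± 0.0782 CPM.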

How the data were processed

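Dorsal hippocampus RNA of 4 homecage and 4 SOR mice was analysed. The deposited estimated counts per gene came, by the study's methods, from the authors' bcbio-nextgen pipeline (STAR, featureCounts, mm10), and the table is named for tximport, whose quantifier is not given in the sources used here. The methods name a ribosomal RNA depletion kit while the labels name polyA RNA. Counts were rounded, filtered with filterByExpr, scaled by upper quartile and tested with edgeR 4.0.16 (glmQLFit, glmQLFTest, Benjamini-Hochberg). The authors' RUVs factors were tried as an alternative, written anew from its definition, since their number of factors is not given. Ratios of members added 0.5 counts. The script was tested on simulated data. Exon length is the union of GENCODE exons, and 54495 of 54532 genes had a record. Genes named beyond the members were the 3 nearest to each EGR gene, and the called, highest and lowest genes of each list. The members, lists and motifs were chosen with earlier results of these data known. Replicate numbers were not used to pair libraries, except in the replicate block (see the processing part of the closing section). The labels do not say which libraries share a batch, and p-values measure the spread between these libraries. 1 gene of the lists, and a marker sum that holds it, are not reported here.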

Additional observations from a re-analysis of the deposited data

Results flagged for a closer look

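Egr2 in homecage 1 stood at 1.85 CPM, while the other homecage libraries held 0.874 to 0.954 CPM. The gap to the nearest library was 0.919 of the whole range of the group, above the Dixon limit of 0.83 for 4 samples. It was 1 of 12 groups looked at, and chance alone puts about 1 in 20 groups past this limit.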

How the results depend on the processing

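Egr2 kept its direction and its call in all 14 alternatives on all libraries and in all 8 fits without 1 library (log2 fold change 2.65 to 3.07). Egr1 lost its call with a replicate block (1.06, adjusted p = 0.0591, edgeR) and when tested against a fold change of 1.4 (1.09, adjusted p = 0.584), and Egr4 in the latter (1.17, adjusted p = 0.476). Egr3 gained a call with DESeq2 (0.33, adjusted p = 0.0144) and with 2 or 3 RUVs factors in the likelihood ratio test (0.33 in both), as did Nab2 (0.25 with DESeq2, 0.24 with 2 or 3 factors), so that 5 members were called in each of these fits, against 1 in the test against 1.4-fold. Without 1 library the log2 fold change ranged from 0.88 to 1.21 for Egr1, from 1.06 to 1.27 for Egr4 and from -0.00092 (without SOR 3) to 0.07 for Nab1, and 1 to 3 members were called. Causes of these changes were not tested, except that fewer libraries entered the last fits. Genes called higher and lower numbered 60 and 8, against 145 and 69 with the likelihood ratio test, 314 and 121 with DESeq2, 199 and 105, 302 and 195, and 291 and 210 with 1, 2 and 3 RUVs factors in the likelihood ratio test, 37 and 3 with the replicate block, 7 and 1 against 1.4-fold, and 26 to 49 higher without 1 library. Correlations of library deviations were -0.0827 to 0.0443 for same-numbered libraries and -0.173 to 0.192 for others. The first range lies within the second, and so few libraries cannot tell whether a shared number marks a shared batch. With no count added before the ratios, each of the 15 pairs kept its call or lack of one, with 11 called. Pair ratios without 1 library were values with no test. Dropping 1 of 4 libraries cannot move a group mean by 1 SD between libraries, so smaller moves there say nothing about stability. The Egr1 homecage share was 33.8% with the longest transcript as length, and without length correction 38.2%, beside an Egr3 SOR share of 40.0% and Egr4 shares of 3.84% in homecage and 4.99% in SOR. Egr2 in homecage rested on 49 to 102 counts a library, and its log2 fold change was 3.07 without homecage 1.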
